A study of Mus musculus with 6 samples.

Results

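The genes described here are 10 regulators of the choice of olfactory receptor genes, measured in the nasal epithelium of newborn mice that lack the transcription factor Atf5. They are the enhancer factors Lhx2, Ldb1 and Emx2, the lysine demethylase Lsd1 (gene Kdm1a), the H3K9 methyltransferases Ehmt1, Ehmt2 and Setdb1, the heterochromatin protein Cbx5, and the nuclear envelope proteins Lbr and Lmna. They were chosen by name, and each had 1 probe set annotated with that symbol alone, so all 10 were measured among 19937 genes. Septa and turbinates were taken on postnatal day 0 from homozygous Atf5-/- pups and from Atf5+/+ pups of strain C57BL6, born to Atf5+/- parents. Each genotype had 3 samples, pools of 3 pups apiece that were read on 1 whole-transcript array. The deleted part of Atf5 is not named in the labels, nor is a restriction of the loss to a cell type. A pool of several pups hides the spread between animals.

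An olfactory sensory neuron transcribes a single allele of a single receptor gene and keeps the other receptor genes silent. As background, receptor genes are packed into heterochromatin marked by methylated H3K9 and H4K20 before any receptor is chosen. Setdb1 and the related enzymes Ehmt1 (GLP) and Ehmt2 (G9a) are writers of H3K9 methylation, Cbx5 encodes HP1 alpha, which binds that mark, and Lsd1 removes methyl groups when a receptor allele is switched on. Lhx2 binds receptor enhancers together with Ebf factors, and Ldb1 bridges such enhancers across chromosomes. Lbr, the lamin B receptor, ties heterochromatin to the nuclear rim, and olfactory neurons are known to lose it as receptor loci gather inside the nucleus. The chosen receptor protein sets off an unfolded protein signal that raises translation of Atf5, and the later rise of Adcy3, the adenylyl cyclase of odour transduction, shuts Lsd1 down. The comparison of Atf5-/- with Atf5+/+ tissue asks whether transcripts of this machinery differ when Atf5 is missing.

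Promoter sequence of all 10 genes was read from RefSeq (GRCm38.p6), as 16 windows of 300 bases that run from 250 bases before to 50 after an annotated transcript start. No window lay at the upstream end of the annotated Lmna gene, so that stretch was not searched. The 3 windows below are shown because each holds a motif found in no window of the other regulators. Capitals mark TAATTA, a LIM homeodomain core, TTTGAA, a cell cycle homology region, CCAAT boxes, TGACG, the partial cAMP response element, and TGATGNAA, a C/EBP-ATF element, on either strand. The Lbr window lies at chr1:181842352-181842651, minus strand, that of Emx2 at chr19:59458440-59458739, plus strand, and that of Kdm1a at chr4:136602674-136602973, minus strand.
Lbr: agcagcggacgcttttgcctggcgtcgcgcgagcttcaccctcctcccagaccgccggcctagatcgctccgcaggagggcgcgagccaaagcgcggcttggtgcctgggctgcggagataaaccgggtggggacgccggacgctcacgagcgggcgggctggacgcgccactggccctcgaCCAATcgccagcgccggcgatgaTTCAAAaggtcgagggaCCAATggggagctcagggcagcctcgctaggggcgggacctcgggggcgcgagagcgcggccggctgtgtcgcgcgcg
Emx2: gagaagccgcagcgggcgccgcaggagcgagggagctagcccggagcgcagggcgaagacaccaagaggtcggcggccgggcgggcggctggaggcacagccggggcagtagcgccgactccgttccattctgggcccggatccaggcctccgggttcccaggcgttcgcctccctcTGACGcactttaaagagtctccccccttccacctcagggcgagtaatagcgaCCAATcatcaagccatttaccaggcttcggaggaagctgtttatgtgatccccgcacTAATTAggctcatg
Kdm1a: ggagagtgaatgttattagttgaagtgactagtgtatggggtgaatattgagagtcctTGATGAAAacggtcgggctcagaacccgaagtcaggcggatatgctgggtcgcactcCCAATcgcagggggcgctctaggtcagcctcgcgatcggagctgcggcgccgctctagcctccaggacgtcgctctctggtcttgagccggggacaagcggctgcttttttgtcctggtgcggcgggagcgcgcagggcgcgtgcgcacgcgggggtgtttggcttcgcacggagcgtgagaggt

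Lbr was the only gene of the 10 whose windows held TTTGAA, which starts at base -45 and is flanked by CCAAT boxes at -68 and -28. TTTGAA occurred in 17.9% of 32851 promoter windows. CCAAT occurred in windows of 7 of the 10 genes, Ldb1, Emx2, Kdm1a, Lbr, Lmna, Cbx5 and Setdb1, which is 7 of 16 windows, against 37.4% of all windows. Emx2 alone held TAATTA, at base 37 after the start, as 5.29% of all windows did. Kdm1a alone held TGATGNAA, at -192, found in 3.97% of all windows. TGACG was present in windows of Emx2, Ldb1 and Lhx2 and in 20.8% of all windows. Neither the full element TGACGTCA nor the Ebf core TCCCNNGGG occurred in any of the 16 windows, against 1.79% and 6.56% of all windows. TGACG lies within TGACGTCA, and no other searched motif lies within another. These matches describe letters in these windows only.

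Before the regulators, the state of the tissue is given in short. Atf5 itself was at 9.43, 9.44 and 9.50 on the log2 scale in Atf5-/- arrays and at 10.54, 10.96 and 10.63 in Atf5+/+ arrays. Of 13 markers of mature olfactory neurons 12 fell, with a mean level of 9.18 to 9.32 in Atf5-/- and 10.7 to 11.0 in Atf5+/+. Of 9 immature neuron markers 3 fell (mean level 10.5 to 10.6 in Atf5-/- and 10.8 to 10.9 in Atf5+/+), while none of 7 precursor, 7 sustentacular and 7 basal cell markers passed. A block for the replicate number added Stmn2 to the immature markers that fell (4) and the sustentacular gene Cyp2g1 (adjusted p = 0.0114). Of 12 cell division genes 3 rose, or 10 once the replicate number entered the model as a block (mean level 10.6 to 10.8 in Atf5-/- and 10.2 to 10.4 in Atf5+/+). Among markers of neighbouring tissue, 1 of 9 mesenchyme genes rose, Lum (0.35), none of 8 muscle and 9 endothelial and myeloid genes passed, and 2 of 3 enamel genes fell. With the block the muscle gene Myh3 was higher (adjusted p = 0.0438) and all 3 enamel genes fell, Ambn included (adjusted p = 0.0338). Atf5-/- replicate 3 was the lowest knockout array for 8 of the 10 regulators, and results are also given without it. In bulk tissue, fewer cells of a type and less RNA per cell cannot be told apart.

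None of the 10 regulators passed the test in either direction, by limma with Benjamini-Hochberg adjustment over all genes at a threshold of 0.05. Of all 19937 genes 3.74% passed, 0.502% higher and 3.24% lower in Atf5-/-. The lowest adjusted p among the regulators was 0.107, for Lbr. At an unadjusted p under 0.05 there were 2 of 10, Lbr and Lmna, both higher in Atf5-/-, against 16.1% of all genes and 7.82% higher. The median log2 change of the 10 was 0.049, against 0.0072 over all genes. As deposited 9 of 10 lay above 0, against 53.0% of all genes. The count was 8 after quantile normalization and 10 after median centring of the arrays, for which the share of all genes was not computed. Omp, a marker of mature olfactory neurons, changed in the same arrays by -2.23 (adjusted p = 0.000103), and Gnal, the G protein of odour transduction, by -2.36 (adjusted p = 2.12e-06).

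The intervals show what size of change these arrays leave possible. No single 95% interval reached a fall beyond 1.20-fold, the bound of Emx2, or a rise beyond 1.35-fold, the bound of Lmna. For comparison, Adcy3 was at 9.39, 9.42 and 9.49 in Atf5-/- arrays and at 10.27, 10.01 and 10.24 in Atf5+/+ arrays. It fell by 0.74 on the log2 scale (SE 0.080, adjusted p = 0.00146), or 1.67-fold. The intervals are per gene and not joint over the 10, and RMA, which as generally defined makes the arrays' distributions alike, would hide a change shared by most transcripts.

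**Figure D1:**
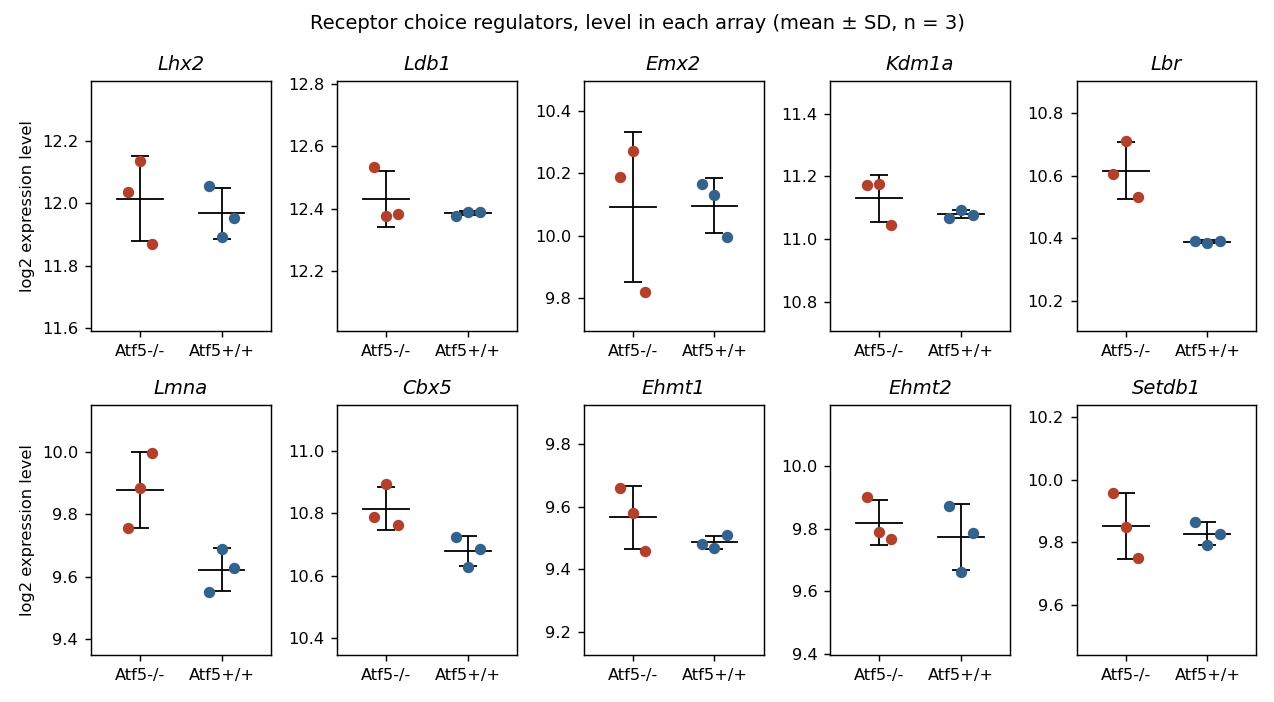
Log2 expression level of each of the 10 regulators in the 3 Atf5-/- arrays (red, left) and the 3 Atf5+/+ arrays (blue, right), with mean and SD as black bars; every panel spans the same height on the log2 scale around its own centre. The genotypes separate for Lbr, Lmna and Cbx5 and overlap for the other 7.

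Among the enhancer factors, Lhx2, a LIM homeodomain factor, was at 12.04, 12.14 and 11.87 in Atf5-/- arrays and at 12.05, 11.89 and 11.95 in Atf5+/+ arrays. The lowest and the highest of the 6 values both came from knockout arrays, so the groups overlapped fully. Its log2 change was 0.047 (SE 0.082, adjusted p = 0.844, 95% interval -0.14 to 0.23). Ldb1, the LIM domain binding protein that joins Lhx2-bound sites, was at 12.53, 12.38 and 12.38 in Atf5-/- arrays and at 12.38, 12.39 and 12.39 in Atf5+/+ arrays. Only the first knockout array stood off, and the Atf5+/+ arrays lay within 0.012 of each other. Its change was 0.045 (SE 0.065, adjusted p = 0.804, interval -0.10 to 0.19). Emx2, a homeodomain factor that many receptor genes need in mice, was at 10.19, 10.27 and 9.82 in Atf5-/- arrays and at 10.16, 10.13 and 9.996 in Atf5+/+ arrays. It had the widest spread of the 10, with knockout values 0.45 apart, and its interval ran from -0.26 to 0.25 around -0.0038 (SE 0.11, adjusted p = 0.994).

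Kdm1a (Lsd1) was at 11.17, 11.17 and 11.04 in Atf5-/- arrays and at 11.07, 11.09 and 11.08 in Atf5+/+ arrays. Knockout arrays 1 and 2 were above all Atf5+/+ arrays and knockout array 3 below them. The log2 change was 0.052 (SE 0.062, adjusted p = 0.762, interval -0.089 to 0.19), which is 1.04-fold with bounds of 0.940 and 1.14.

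The H3K9 methyltransferases were close to even between genotypes. Ehmt1 was at 9.66, 9.58 and 9.46 in Atf5-/- arrays and at 9.48, 9.47 and 9.51 in Atf5+/+ arrays, a change of 0.080 (SE 0.068, adjusted p = 0.638). Its knockout arrays fell on both sides of the Atf5+/+ arrays. Ehmt2, the partner with which Ehmt1 forms a dimer, was at 9.90, 9.79 and 9.77 in Atf5-/- arrays and at 9.87, 9.66 and 9.79 in Atf5+/+ arrays, a change of 0.046 (SE 0.074, adjusted p = 0.828). Its lowest value was the second Atf5+/+ array, and the groups overlapped. Setdb1, which trimethylates H3K9, was at 9.96, 9.85 and 9.75 in Atf5-/- arrays and at 9.86, 9.79 and 9.83 in Atf5+/+ arrays, a change of 0.025 (SE 0.069, adjusted p = 0.912) that turned to -0.012 after quantile normalization. Upper 95% bounds were 1.17-fold for Ehmt1, 1.16-fold for Ehmt2 and 1.13-fold for Setdb1.

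Cbx5 was at 10.79, 10.89 and 10.76 in Atf5-/- arrays and at 10.73, 10.63 and 10.69 in Atf5+/+ arrays. All knockout arrays lay above all Atf5+/+ arrays, by a gap smaller than the spread within either genotype. The change was 0.13 (SE 0.064, adjusted p = 0.344, interval -0.0090 to 0.28). Its paralogs, named here after their values were seen, were at 0.027 (Cbx1, HP1 beta, adjusted p = 0.905) and 0.080 (Cbx3, HP1 gamma, adjusted p = 0.639), and both overlapped between genotypes. Whether Cbx5 differs from them was not tested.

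The nuclear envelope genes had the largest differences of the group. Lbr was at 10.61, 10.71 and 10.53 in Atf5-/- arrays and at 10.39, 10.38 and 10.39 in Atf5+/+ arrays. The Atf5+/+ arrays lay within 0.0094 of each other, and every knockout array was above them. The change was 0.23 (SE 0.065, adjusted p = 0.107), or 1.17-fold with an interval of 1.06 to 1.30. Lmna, which encodes the A-type lamins of the nuclear rim, was at 9.76, 9.88 and 9.997 in Atf5-/- arrays and at 9.55, 9.69 and 9.63 in Atf5+/+ arrays. Here too the groups did not overlap, and the change was 0.26 (SE 0.077, adjusted p = 0.125), or 1.19-fold with an interval of 1.06 to 1.35. With a block for the replicate number, which called 6.57% of all genes (2.11% higher and 4.46% lower in Atf5-/-), the adjusted p was 0.0761 for Lbr and 0.0526 for Lmna, still above the threshold. Changes above that of Lbr were measured for 4.24% of all genes and above that of Lmna for 2.89%.

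**Figure D2:**
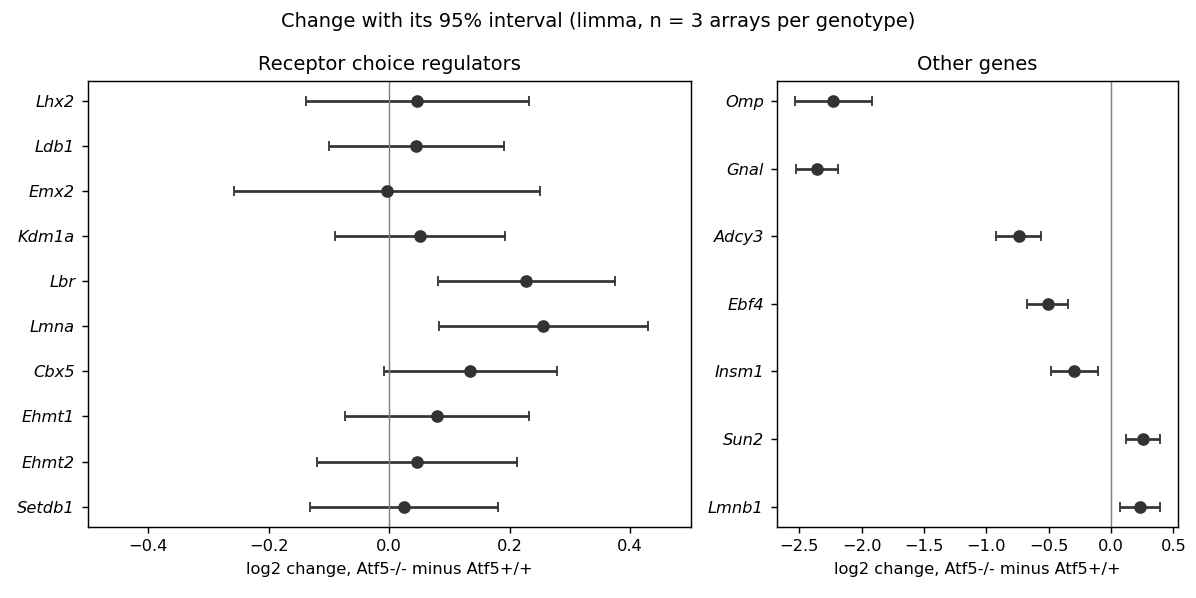
Log2 change, Atf5-/- minus Atf5+/+, with its 95% interval from limma (n = 3 arrays per genotype) for the 10 regulators (left) and for 7 other genes on a wider axis (right). The intervals of Lbr and Lmna lie above 0 before adjustment over all genes, the other 8 include 0, and Omp, Gnal, Adcy3 and Ebf4 lie far below it.

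Lbr, Lmna and Cbx5 were thus 3 of 10 regulators whose genotypes did not overlap with the knockout higher, against 10.8% of all genes in that direction and 21.1% in either. None of the 10 was separated with the knockout lower, against 10.3% of all genes. The mean level of the cell division list was higher in every knockout array than in any Atf5+/+ array. So was that of the endothelial and myeloid list (9.89 to 9.91 in Atf5-/- and 9.67 to 9.81 in Atf5+/+). Of the companion lists given below, only the polycomb and DNA methylation list did the same (10.36 to 10.43 in Atf5-/- and 10.31 to 10.35 in Atf5+/+). The means of the mesenchyme and muscle lists overlapped between genotypes (11.64 to 11.84 in Atf5-/- and 11.56 to 11.66 in Atf5+/+ for mesenchyme, 10.28 to 10.60 in Atf5-/- and 9.13 to 10.34 in Atf5+/+ for muscle), and the lowest muscle mean was that of Atf5+/+ array 1, the other Atf5+/+ arrays being at 10.34 and 10.27. The part of these lists in the values of Lbr, Lmna and Cbx5 was not tested.

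Atf5-/- replicate 3 held the lowest knockout value for all regulators but Ldb1 and Lmna, and the highest for Lmna. The same array was lowest for many genes of the companion lists given below. These were 16 of 19 Lsd1 partners and demethylases, 10 of 11 architectural, 10 of 16 enhancer partner and 10 of 15 polycomb and DNA methylation genes. In the remaining lists it was lowest for 5 of 11 H3K9 and H4K20, 7 of 11 heterochromatin and 8 of 15 lamina genes. Atf5+/+ array 3 was the lowest of its genotype for 11 of 11 architectural genes, but for 1 of the 10 regulators. It was also lowest for 8 of 16 enhancer partner genes and 9 of 19 Lsd1 partners and demethylases. The counts were 6 of 11 H3K9 and H4K20, 8 of 11 heterochromatin, 7 of 15 lamina and 7 of 15 polycomb and DNA methylation genes. In every companion list it had the lowest Atf5+/+ mean. The share of all genes for which an array was lowest was not counted. The mean level of the 10 was 10.66, 10.67 and 10.54 in Atf5-/- arrays and 10.56, 10.51 and 10.52 in Atf5+/+ arrays. Without Atf5-/- replicate 3 all 10 lay above 0. The 6 that then did not overlap were Emx2, Kdm1a, Lbr, Lmna, Cbx5 and Ehmt1, against 22% of all genes in the same direction. Still none passed, with Lbr lowest at an adjusted p of 0.0673. The change of Emx2 became 0.13 and that of Lhx2 0.12. Atf5-/- replicate 3 was singled out for its low values of these genes, so its removal raises most of their changes. Without Atf5-/- replicate 1, 7 lay above 0, and without Atf5-/- replicate 2, 8 did, with 3 not overlapping in either case. With an Atf5+/+ array left out, 9 or 10 lay above 0 and 3 did not overlap. The share of all genes that did not overlap was not counted for these fits, so their counts of 3 have no share beside them. Groups of 2 and 3 arrays separate more easily than groups of 3 and 3. With the knockout higher, the share of all genes was 22% without Atf5-/- replicate 3 and 10.8% with all arrays. Atf5-/- array 3 also had the highest muscle mean of the knockout arrays (10.60, against 9.13 to 10.34 in Atf5+/+) and the highest mesenchyme mean (11.84, against 11.56 to 11.66 in Atf5+/+). Of the 8 muscle genes it was the highest knockout array for 7, and of the 9 mesenchyme genes it was highest for 4 and lowest for 2. The part of such tissue in the values of that array was not tested.

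**Figure D3:**
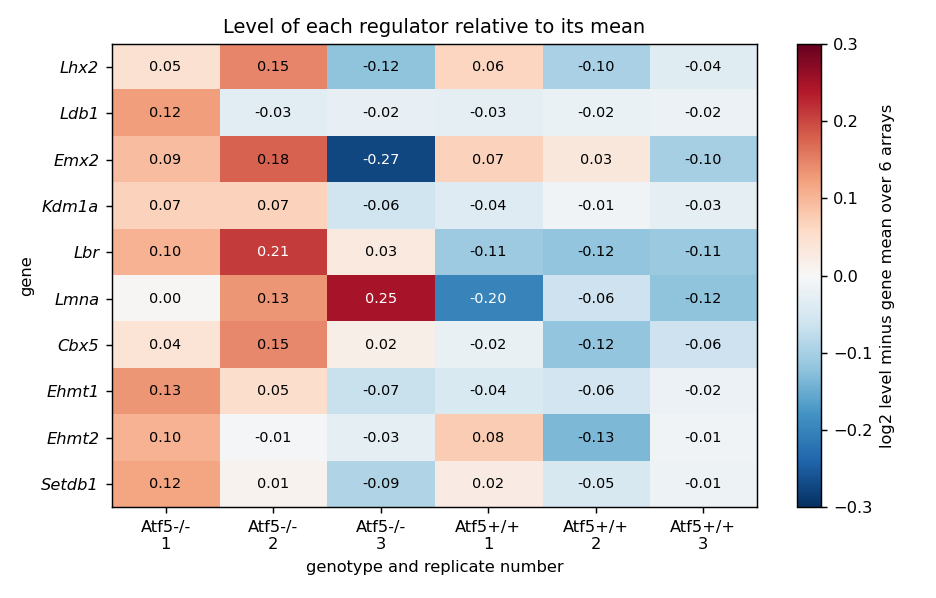
Log2 level of each regulator minus its mean over the 6 arrays, with Atf5-/- arrays 1 to 3 on the left and Atf5+/+ arrays 1 to 3 on the right; red is above and blue below the mean. Atf5-/- array 3 is at -0.27 for Emx2 and -0.12 for Lhx2 and at 0.25 for Lmna.

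Across the 6 arrays Lbr followed Cbx5 most closely among the regulators (Pearson r = 0.938), and Kdm1a followed Ehmt1 (r = 0.905), while Lhx2 and Emx2 were at r = 0.817. Lmna followed none of them as closely, with r between -0.36 and 0.69 against the other 9. These are descriptions over 6 points that share genotype and array. Over all genes other than receptors and provisional symbols, the nearest in pattern to Lbr were Snora52 and Axin1, to Lmna Gli3 and Plekhs1, and to Cbx5 Prmt6 and Pskh1. Nearest to Lhx2 were Zfp961 and Taf6, to Emx2 Cdk8 and Swt1, to Ldb1 Grin3a and Gata2, and to Kdm1a Klhl2 and Slc9a3r1. Ehmt1 was matched by Ppp2r1b and Clec4a1, Ehmt2 by Zdhhc9 and Cyp27a1, and Setdb1 by Slc30a7 and Brwd1. All 20 had r between 0.989 and 0.998 over 6 arrays, as the highest values of a search over all those genes. None of them passed the test, which follows in part from their being picked to track genes that did not pass.

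The wider machinery was followed through 7 lists of companion genes, of which 98 of 106 listed symbols were measured. Of these 98, 1 fell and none rose, against 3.74% of all genes changed. The one was Ebf4, a member of the Ebf family that binds receptor enhancers with Lhx2. Ebf4 was at 10.66, 10.71 and 10.72 in Atf5-/- arrays and at 11.34, 11.16 and 11.12 in Atf5+/+ arrays. The groups were far apart, and it fell by 0.51 (SE 0.072, adjusted p = 0.00519), or 1.42-fold. Its call held without any 1 array (highest adjusted p = 0.0284). The other Ebf genes, named after their values were seen, were at -0.066 (Ebf1), -0.12 (Ebf2) and -0.15 (Ebf3) with adjusted p of 0.724, 0.454 and 0.341.

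The other 15 of 16 enhancer partners, which include the LIM-only genes and the Ssbp cofactors of Ldb1, did not pass, and the list median was -0.064. None of 19 partners of Lsd1 and other demethylases passed (median 0.044). Insm1, a zinc finger factor of neuronal precursors that binds Lsd1, was at 10.51, 10.54 and 10.41 in Atf5-/- arrays and at 10.95, 10.70 and 10.69 in Atf5+/+ arrays. The groups did not overlap. The change was -0.29 (SE 0.083, adjusted p = 0.102), and the block for the replicate number gave an adjusted p of 0.0466. Of 11 other H3K9 and H4K20 methyltransferases and cofactors none passed (median 0.011), the lowest p being that of Trim28, a corepressor that recruits Setdb1 (0.18, adjusted p = 0.239). Of 11 other heterochromatin proteins none passed (median 0.041), with Hells, a chromatin remodeller, at 0.15 (adjusted p = 0.274).

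Of 15 other genes listed with the nuclear lamina and inner membrane, not all of which encode proteins of these structures, none passed either (median 0.043). Sun2, which links the lamina to the cytoskeleton, was at 9.95, 9.84 and 9.92 in Atf5-/- arrays and at 9.62, 9.69 and 9.65 in Atf5+/+ arrays. Its groups were clearly apart, at a change of 0.25 (SE 0.061, adjusted p = 0.0577), and median centring of the arrays brought the adjusted p to 0.0462. Lmnb1, a B-type lamin, was at 10.02, 10.15 and 10.20 in Atf5-/- arrays and at 9.83, 9.97 and 9.88 in Atf5+/+ arrays, a change of 0.23 (SE 0.072, adjusted p = 0.143). Lmnb2, the other B-type lamin, was at -0.015 (adjusted p = 0.943). Lmnb1 and Lmnb2 were named after their values were seen. Sun2 and Lmnb1 were the 2 of 15 that did not overlap with the knockout higher, a share near the 10.8% of all genes.

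Of 11 measured architectural genes, which hold Ctcf and the cohesin subunits of long-range contacts, none passed (median 0.016), and Smc1a had the lowest p (0.090, adjusted p = 0.581). Of 15 polycomb and DNA methylation genes none passed (median 0.062), Mbd1, a methyl-CpG binding protein, being at 0.20 (adjusted p = 0.195). At an unadjusted p under 0.05 there were 9 of the 98 companion genes, 7 of them higher in Atf5-/-, no larger a share than the 16.1% of all genes and the 7.82% of all genes higher.

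**Figure D4:**
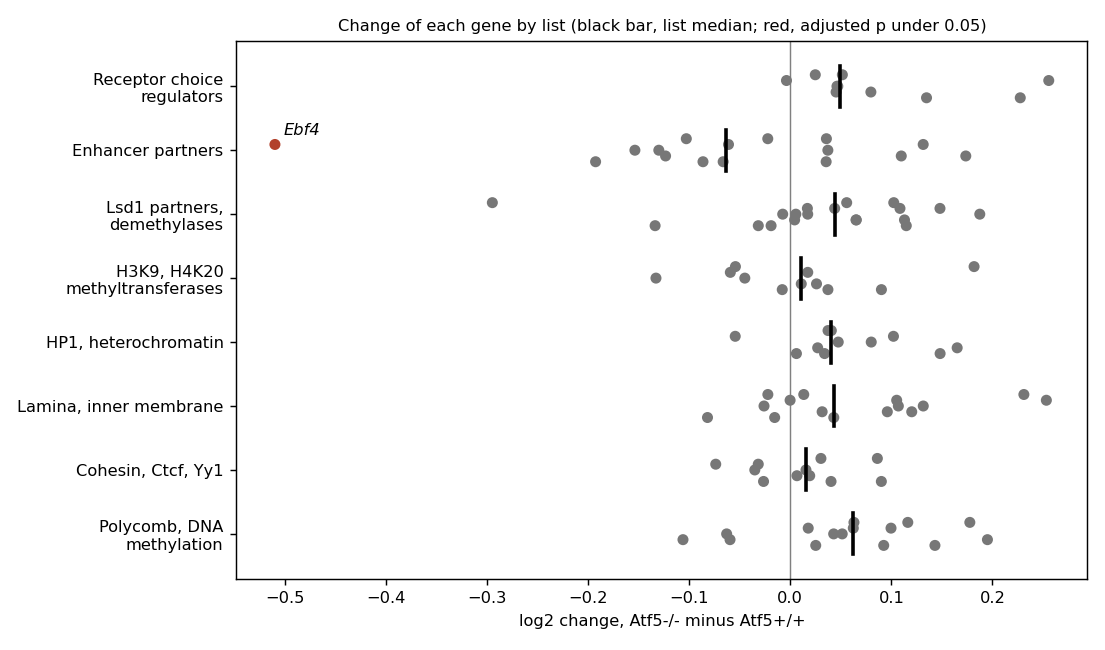
Log2 change, Atf5-/- minus Atf5+/+, of every measured gene of the 10 regulators (top row) and of the 7 companion lists; points are genes, spread vertically only for legibility, and black bars are list medians. Ebf4, at -0.51, is the point past the threshold, and the regulators lie between -0.0038 and 0.26.

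Olfactory receptors, the output of this machinery, stood beside these values. Of 1027 genes with an olfactory receptor symbol 357 fell and 2 rose, with a median of -0.27, against 3.24% of all genes lower and 0.502% higher. The shares of all genes given here and above include these receptors, which hold 357 of the 645 genes lower in Atf5-/-. The mature neuron markers in the same arrays, of which 12 of 13 fell, had a median of -1.59. Whether these medians differ was not tested, and how far each probe set stood over background could not be judged.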

How the data were processed

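Total RNA of 6 pooled samples was hybridised in 1 colour to whole-transcript arrays, 3 per genotype. The authors deposited 1 table of log2 values (34760 rows, 4.50 to 14.7), read as log2 from their range. The submitters' processing notes name RMA, affy and limma; versions and step order are not given in the sources used. The array medians were 8.67 to 8.72. Groups and replicate numbers came from the sample titles, and 0 columns of other samples were present.

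Rows with exactly 1 symbol in GEO's platform annotation (21640) were reduced to the highest-mean probe set per gene. Atf5-/- was compared with Atf5+/+ by limma 3.58.1 (lmFit, eBayes, no covariate) in R 4.3.3, with Benjamini-Hochberg adjustment over 19937 genes. The procedure was tested on simulated data. The regulators, companion and marker lists, tests and alternatives were chosen with earlier results of these data known. The named genes were the regulators; Atf5, Omp, Gnal and Adcy3; from each companion list the genes past the threshold with or without the replicate block or, with none, that with the lowest p; and the 2 nearest genes in pattern. Other names are marked as chosen later, apart from Lum, Stmn2, Cyp2g1, Myh3 and Ambn, also chosen later.

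Deviations from the genotype means correlated at 0.295, 0.122 and 0.234 between arrays numbered 1, 2 and 3. Each exceeded 0.1, and the numbers were taken as pairs only in the fit with the replicate block. The main fit and its intervals ignore them. Differently numbered arrays were not compared, so whether the arrays are paired was not settled. What a number shares is not stated in the labels. Alternatives tried were a replicate block, quantile normalization, median centring, a trended and robust prior, a filter at the 30th percentile, the mean of probe sets, and each array left out.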

Additional observations from a re-analysis of the deposited data

How the results depend on the processing

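None of the 10 regulators passed under any of the 12 alternatives. Each regulator has 1 probe set, and the replicate block, prior, filter and mean of probe sets leave its change as it was. Only quantile normalization, median centring and the arrays left out could turn a direction. Lbr, Lmna, Cbx5, Kdm1a and Ehmt1 kept their direction in all 12, with Lbr between 0.18 and 0.27 (adjusted p 0.0673 to 0.295) and Lmna between 0.20 and 0.32 (adjusted p 0.0526 to 0.384). The other 5 lay near 0 and crossed it in part. With 1 array left out, Lhx2 ran from -0.014 to 0.12, Ldb1 from -0.0055 to 0.073, Emx2 from -0.093 to 0.13, Ehmt2 from -0.0097 to 0.096 and Setdb1 from -0.028 to 0.076. Emx2 was at 0.0016 after median centring and Setdb1 at -0.012 after quantile normalization. The causes were not tested. The number of companion genes past the threshold was 1 in the comparison as reported and with any 1 array left out, 2 with the replicate block (Ebf4 and Insm1) and 2 after median centring (Ebf4 and Sun2). Over all genes 745 passed, of which 100 were higher, against 1310 with the replicate block (421 higher), 432 with the filter at the 30th percentile, which tests 13956 genes, and 410 to 649 with 1 array left out. The replicate block changed no call of a regulator. The number of arrays limits every value, and signal over background could not be judged, since the table holds no detection calls.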
